A study of Mus musculus with 20 samples.

Results

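The genes examined in mouse quadriceps muscle are 9 genes of pyruvate oxidation: the pyruvate dehydrogenase subunit genes Pdha1, Pdhb and Dlat, and the citric acid cycle enzyme genes Cs, Idh2, Idh3a, Ogdh, Suclg1 and Mdh2. They were found by gene name in the array's annotation, which gave 13 of its 39429 probes: 3 probes each for Pdhb and Ogdh and 1 for each of the other genes. All 13 probes carried the scanner software's mark for well above background on all 20 arrays, also the dimmest probes of Pdhb and Ogdh, whose signals came close to background, so all 9 genes were tested, among 15303 gene names. The samples came from male C57BL/6J mice killed at 6 weeks of age after 2 h without food. Their mothers, C57BL/6J as well and 8 weeks old at the start, had eaten a diet with 40% of energy from fat (group mHFD) or 10% of energy from fat (group mLFD) from 3 days before mating until the end of lactation, with protein at 23% of energy in both diets and carbohydrate at 37% in the first and 67% in the second. After weaning every mouse of both groups was housed alone on the low-fat diet, so the groups differ by the maternal diet and not by their own later diet. Each group held 10 mice with 1 array each. Litters had been set to 5 to 7 pups. The labels do not name the litter of a mouse and allow at most 4 siblings in a group, so mice of a group may not be independent, p-values may be too small, and they measure the spread between these mice.

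Pyruvate dehydrogenase is the mitochondrial complex that turns pyruvate from glycolysis into acetyl-CoA. Its E1 part is built from the alpha subunit Pdha1 and the beta subunit Pdhb, its E2 core from Dlat, and it is switched off when Pdk kinases phosphorylate Pdha1 and on again by Pdp phosphatases. The citric acid cycle then oxidises the acetyl group, starting with citrate synthase (Cs) and passing through isocitrate dehydrogenases, the 2-oxoglutarate dehydrogenase complex, succinyl-CoA ligase, succinate dehydrogenase, fumarase and malate dehydrogenase. In muscle these enzymes set how much carbohydrate and fat can be burned, and citrate synthase is a customary index of mitochondrial content.

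The probes are 60-base oligonucleotides, and 2 genes have several of them, which gives a check on whether a value belongs to the gene or to the probe. The stretches of 30 bases shown here, read from the scanner files, show where the probes of Pdhb and Ogdh stand to each other. For Pdhb, capitals mark the 15 bases that the last part of the brightest probe (A_55_P1953972) shares with the first part of the next (A_55_P1969776); the dimmest probe (A_55_P1969775) shares no run over 6 bases with either.
Pdhb A_55_P1953972, bases 31 to 60: ctaagaagtatattaTCTACATTTGCTGTT
Pdhb A_55_P1969776, bases 1 to 30: TCTACATTTGCTGTTtaattgttttgataa
Pdhb A_55_P1969775, last 30 bases: ctaatccaaggaggtttcctttaataactt
Ogdh A_55_P2006281, last 30 bases: acacctgatttatttattttggttaaaaaa
Ogdh A_55_P2006280, last 30 bases: cggcttgacccataaactaagttatcatgg
Ogdh A_55_P2006277, last 30 bases: aagatggcttagcactgactgctcttccaa

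In the annotation's build mm9, the first Pdhb probe lies on the minus strand at chr14:8998548-8998607, the second next to it at chr14:8998505-8998562 and the dimmest away from both at chr14:9003605-9003664. The Ogdh probes lie on the plus strand at chr11:6256511-6256570, chr11:6256583-6256642 and chr11:6258910-6258969. The other probes lie at chrX:156560665-156560724 (Pdha1), chr9:50442953-50443012 (Dlat), chr10:127799428-127799487 (Cs), chr7:87239736-87239795 (Idh2), chr9:54451368-54451427 (Idh3a), chr6:73221044-73221103 (Suclg1) and chr5:136266157-136266216 (Mdh2). Gene models of this build were not used here, so no exon is assigned. None of the 7 genes with 1 probe shares a run of 15 bases with any other probe on the array. The brightest Ogdh probe shares such a run with 1 probe outside the gene and the dimmest Ogdh probe with 3.

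Each value is the log2 of a mouse's signal over that of the common reference, an equal mixture of the RNA of all mice. A gene can lie on the same side of 0 on every array that measured it, as Dlat and Mdh2 did. A value of 0 is therefore not read as the level of the mixture, and only differences between mice are read. A difference is the mean of mHFD less the mean of mLFD, its standard error (SE) comes from limma, and each group has n = 10 where nothing else is said. Per array, 15506 to 23410 probes were well above background in the sample's dye, and the scanner software had multiplied that dye by 1.15 to 6.10. The skeletal muscle markers Acta1 and Ckm, actin and creatine kinase of the myofibre, were well above background on all 20 arrays. Over all 19206 probes tested, 1 probe (0.00521%) passed an adjusted p of 0.05, and it represents Bcl6, not a gene of this pathway. The signal of the sample's dye, before scaling to the reference, spanned over the 20 arrays 329 to 4456 for Pdha1, 299 to 2672 for Dlat, 7487 to 48774 for Cs, 1844 to 12775 for Idh2, 1800 to 15045 for Idh3a, 2651 to 19405 for the brightest Ogdh probe, 2712 to 14506 for Suclg1 and 22082 to 109090 for Mdh2. Local background at these probes was at most 47, so none of these values rests on a spot near background, and no spot was saturated. Signals of different probes are not on a common scale. The whole muscle was assayed, so fewer cells of a type and less RNA per cell cannot be told apart.

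For none of the 9 genes was a difference between the groups larger than the spread of the mice detected. By limma's moderated test, adjusted p-values ran from 0.721 for Mdh2 to 0.988 for Idh3a, unadjusted p-values from 0.126 to 0.923, and 0 of the 9 genes had an unadjusted p under 0.05, a level that 7.14% of all probes reached. The groups overlapped for all 9 genes. The share of all probes with overlapping groups was not counted, so the overlap is not read as a trait of these genes. The estimates of 6 genes were above 0 and of 3 below, with a median of 0.056 against 0.0030 over all probes. Of all probes 51.6% had estimates above 0, and the median size of their estimates without sign was 0.051. On the scanner software's own log ratio the median of the 9 genes was 0.0012, so the 0.056 is not read as a shift. The 95% intervals give the size of difference these arrays leave possible: the widest, that of Ogdh, ran from 0.7496-fold to 1.15-fold, and the narrowest, that of Suclg1, from 0.966-fold to 1.13-fold.

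**Figure D1:**
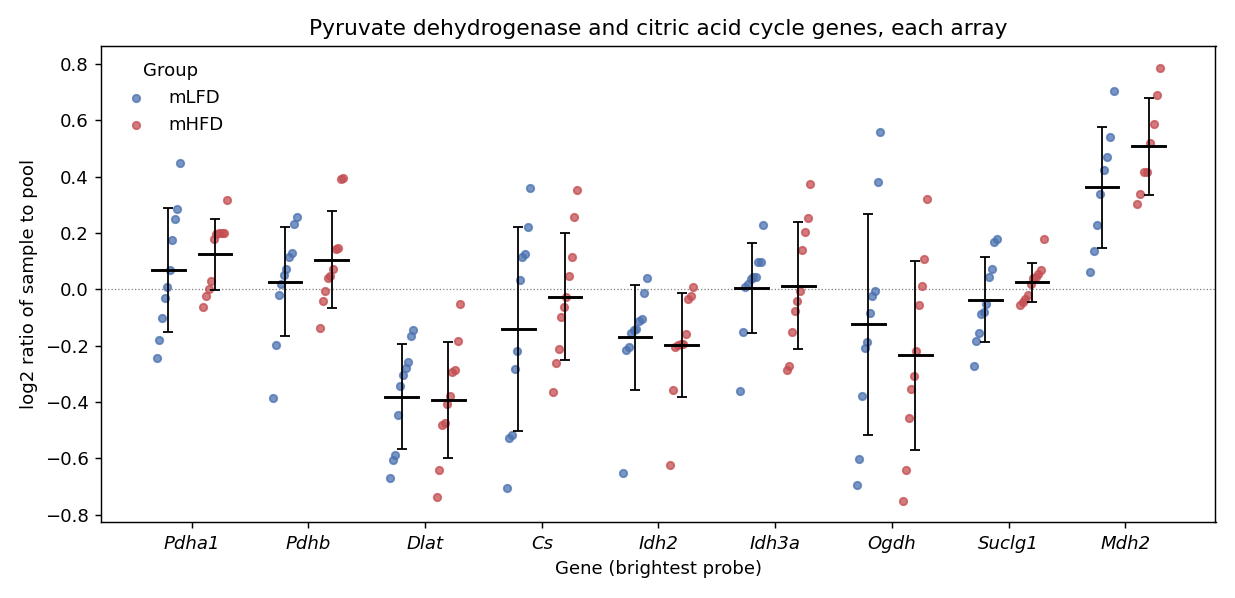
Log2 ratio of each sample to the pool (vertical axis) for the brightest probe of the 9 genes (horizontal axis), with mLFD in blue and mHFD in red; each point is 1 array, the thick line is the group mean and the bar is 1 SD, and Mdh2 has 8 arrays per group. The points of both groups overlap for every gene, and Ogdh spreads most widely, from -0.75 to 0.56.

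Among the pyruvate dehydrogenase subunits, Pdha1, which carries the active site with Pdhb and the regulatory phosphorylation sites, ranged in mHFD from -0.062 over a median of 0.19 to 0.32. In mLFD it ranged from -0.24 over 0.039 to 0.45. The mHFD mice lay inside the mLFD range, and 6 of 10 lay above the mLFD median. The difference was 0.056 (SE 0.076), 1.04-fold (95% interval 0.932 to 1.16; limma adjusted p = 0.867). The SD was 0.13 in mHFD and 0.22 in mLFD (n = 10 each).

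Pdhb, the beta subunit of E1, ranged on its brightest probe from -0.14 over 0.059 to 0.40 in mHFD and from -0.39 over 0.063 to 0.26 in mLFD. The medians were nearly equal, and mHFD mice 7 and 8 were above all mLFD mice. The difference was 0.078 (SE 0.078), 1.06-fold (95% interval 0.944 to 1.18; limma adjusted p = 0.820). The probe next to it gave a difference of -0.056 (SE 0.103, adjusted p = 0.910) and the distant one -0.032 (SE 0.048, adjusted p = 0.884), so the sign of the Pdhb estimate depended on the probe. The distant probe was dim, with Cy5 signals of 58.1 to 189 on a scale where its local background reached 50.5, whereas the first had 4128 to 26075.

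Dlat, the acetyltransferase core, ranged from -0.74 over -0.39 to -0.051 in mHFD and from -0.67 over -0.32 to -0.14 in mLFD. The spread among mice was far larger than the group difference of -0.012 (SE 0.083), 0.991-fold (95% interval 0.880 to 1.12; limma adjusted p = 0.980). Both groups lay below 0 on every array. Only an offset that is the same on every array would cancel between the groups. With group means removed, Dlat had Pearson's r = 0.80 with the number of probes well above background on the array. With that number as a covariate in the fit, the Dlat difference was 0.025 (limma adjusted p = 0.929) in place of -0.012.

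At the entry of the cycle, Cs, which joins acetyl-CoA to oxaloacetate, ranged from -0.36 over -0.045 to 0.35 in mHFD and from -0.70 over -0.093 to 0.36 in mLFD. All mHFD mice lay inside the mLFD range. The difference was 0.11 (SE 0.12), 1.08-fold (95% interval 0.907 to 1.29; limma adjusted p = 0.832). The lowest mLFD mice were numbers 3, 8 and 4, at -0.70, -0.53 and -0.52.

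Both isocitrate dehydrogenase genes gave estimates close to 0 in the fit without covariates. Idh2, the NADP-dependent mitochondrial enzyme, ranged from -0.62 over -0.19 to 0.0098 in mHFD and from -0.65 over -0.14 to 0.040 in mLFD. The difference was -0.027 (SE 0.079), 0.981-fold (95% interval 0.876 to 1.10; limma adjusted p = 0.944). In each group 1 mouse lay well below the others, mHFD mouse 5 at -0.62 and mLFD mouse 4 at -0.65. Idh3a, the catalytic subunit of the NAD-dependent enzyme that serves the cycle, ranged from -0.29 over -0.024 to 0.38 in mHFD and from -0.36 over 0.039 to 0.23 in mLFD. Its difference was 0.0080 (SE 0.082), 1.01-fold (95% interval 0.894 to 1.13; limma adjusted p = 0.988). With the position on the slide in the fit the Idh3a estimate rose to 0.13 (limma unadjusted p = 0.0755, adjusted p = 0.978). That of Idh2 was then -0.0023.

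Ogdh, the E1 component of the 2-oxoglutarate dehydrogenase complex, had the widest spread of the 9 genes. On its brightest probe mHFD mice ranged from -0.75 over -0.26 to 0.32 and mLFD mice from -0.70 over -0.14 to 0.56. The difference was -0.11 (SE 0.15, limma adjusted p = 0.866). The neighbouring probe gave -0.071 (SE 0.15, adjusted p = 0.921). The dimmest probe, with Cy5 signals of 59.6 to 253, gave 0.10 (SE 0.056, unadjusted p = 0.0871, adjusted p = 0.712), and on it all 10 mHFD mice lay above the mLFD median.

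Suclg1, the alpha subunit of succinyl-CoA ligase, was the most tightly measured. It ranged from -0.055 over 0.030 to 0.18 in mHFD and from -0.27 over -0.066 to 0.18 in mLFD. The 10 mHFD mice all lay above the mLFD median, but the mLFD mice reached both lower and nearly as high. The difference was 0.061 (SE 0.054), 1.04-fold (95% interval 0.966 to 1.13; limma adjusted p = 0.7995). The SD was 0.070 in mHFD and 0.15 in mLFD (n = 10 each), a difference in spread that was not tested. In 7 of the 9 genes the SD was larger in mLFD. The share over all probes was not counted, so this is not read as a trait of these genes.

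Mdh2, the mitochondrial malate dehydrogenase that closes the cycle, had the largest estimate. Its spots were flagged as non-uniform on the 4 arrays of slide 2, so 8 mice per group remained. They ranged from 0.30 over 0.47 to 0.79 in mHFD and from 0.060 over 0.38 to 0.70 in mLFD. All 16 values were above 0, and 1 mHFD mouse lay above the mLFD range. The difference was 0.14 (SE 0.091), 1.11-fold (95% interval 0.969 to 1.26; unadjusted p = 0.126, limma adjusted p = 0.721). With the flagged spots kept, all 20 arrays gave 0.14 (adjusted p = 0.714). With the position on the slide in the fit the estimate dropped to 0.034.

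**Figure D2:**
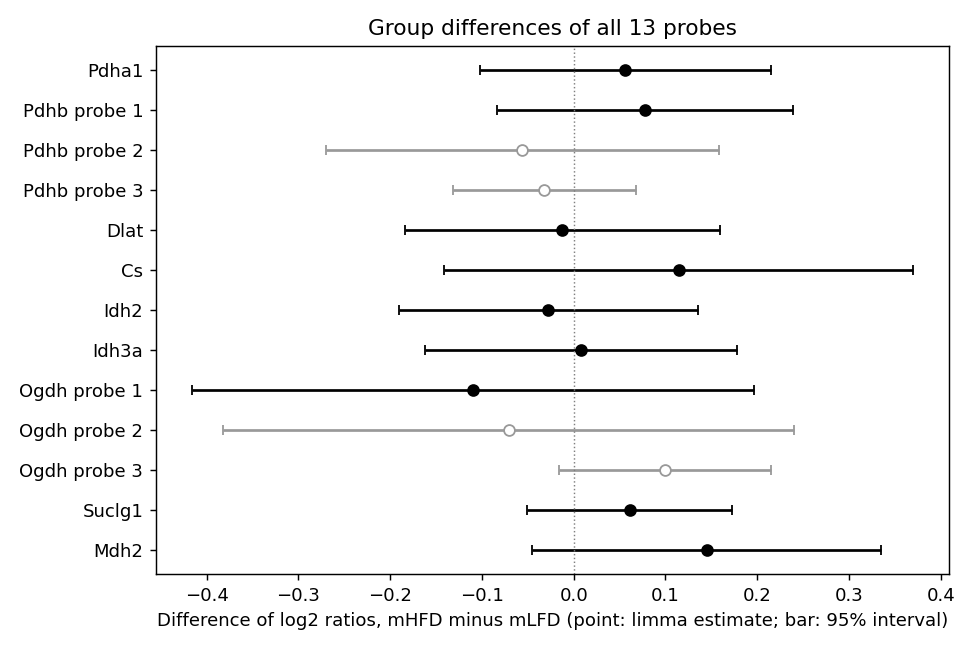
Difference of log2 ratios, mHFD minus mLFD (horizontal axis), for all 13 probes; points are limma estimates, bars are 95% intervals, filled black points are the brightest probe of each gene and open grey points the dimmer probes of Pdhb and Ogdh. Every interval spans 0, and the probes of Pdhb and of Ogdh differ in sign among themselves.

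The arrays lay on 5 slides, each with 2 mice of either group, so each slide gave its own difference. Signs were mixed from slide to slide for 7 of the genes. For Cs the slides ran from -0.21 on slide 5 to 0.41 on slide 2, for Idh2 from -0.25 on slide 3 to 0.34 on slide 2, and for Ogdh from -0.34 on slide 5 to 0.042 on slide 1. Mdh2 was above 0 on each of the 4 slides that measured it, from 0.011 to 0.31. Dlat was below 0 on all 5 slides, from -0.021 to -0.0023. On slides 2 and 5 most of the genes measured there were lower in mHFD (5 of 8 and 6 of 9), and on slide 1 most were higher (7 of 9). Because mHFD samples held positions 1 and 3 and mLFD samples positions 2 and 4 on every slide, an effect that alternates with position and the diet cannot be told apart. A trend along the positions would also enter the difference of every slide with the same sign. With group means removed, Mdh2 had r = -0.61 with position over 16 arrays (permutation p = 0.0167, adjusted over 72 tests 0.166). The part of position in the slide differences was not tested.

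Variation from array to array was then compared among the genes, with the group means removed so that a difference between the means plays no part. Each mouse had 1 array, so variation between mice and variation between arrays cannot be told apart, here or in the spreads given above. Over the 36 pairs, Pearson's r had a median of 0.11, with 22 pairs above 0 and a range of -0.44 to 0.75. Over all pairs of 11540 genes measured on every array the median was 0.0012, and 36.8% of those pairs were above the median of the 9 genes. The median was 0.25 within mHFD alone and 0.13 within mLFD alone, and 18 of the 36 pairs had the higher r in mHFD. Some pairs differed in sign between the groups. Ogdh and Mdh2 had r = -0.78 in mHFD and 0.46 in mLFD (8 mice each), and Pdha1 and Cs 0.38 and -0.56. Differences in r between the groups were not tested. Leaving out single arrays moved the median to 0.0067 without mLFD mouse 9, 0.049 without mLFD mouse 4, 0.059 without mLFD mouse 6 and 0.16 without mLFD mouse 5.

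**Figure D3:**
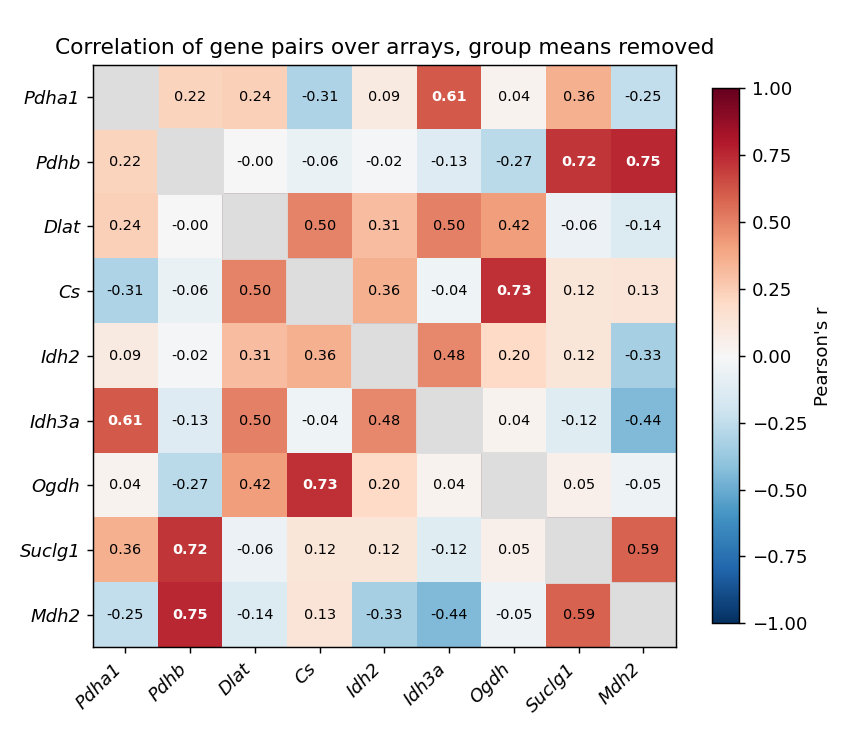
Pearson's r between each pair of the 9 genes over the arrays after group means were removed (20 arrays, 16 for pairs with Mdh2); red is positive and blue negative, and bold numbers mark the 4 pairs past an adjusted permutation p of 0.05. Pdhb, Suclg1 and Mdh2 stand together at 0.59 to 0.75, Cs with Ogdh at 0.73, and Pdha1 with Idh3a at 0.61.

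Of the 36 pairs, 4 passed a two-sided permutation test of r (100000 permutations within groups, Benjamini-Hochberg over the 36 pairs), all in the positive direction. Over all pairs of the 11540 genes measured on every array, the 95th percentile of r was 0.49. The share of all pairs that would pass this test was not counted, so the count of 4 is not read as a trait of these genes. The permutations also do not account for scaling and position that arrays share. Pdhb and Suclg1 had r = 0.72 and Spearman's rho = 0.67 over 20 arrays (permutation p = 0.000230, adjusted 0.00828; rho p = 0.00142, adjusted 0.0168), and r = 0.67 without the 2 arrays farthest out in Pdhb. Pdhb and Mdh2 had r = 0.75 and rho = 0.77 over 16 arrays (permutation p = 0.00115, adjusted 0.0138; rho p = 0.000930, adjusted 0.0167), and r = 0.69 without those 2. Mouse mLFD 6 was the lowest for both Pdhb and Suclg1, at -0.39 and -0.27, and mHFD mouse 8 was high for both, at 0.39 and 0.18.

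Cs and Ogdh had r = 0.73 and rho = 0.81 (permutation p = 0.000490, adjusted 0.00882; rho p = 7e-05, adjusted 0.00252), and r = 0.71 without the 2 arrays farthest out in Cs. Both genes were high in mLFD mouse 5 (0.36 and 0.38) and in mHFD mouse 6 (0.35 and 0.32), and low in mLFD mouse 8 (-0.53 and -0.70). Pdha1 and Idh3a had r = 0.61 and rho = 0.62 (permutation p = 0.00166, adjusted 0.0149; rho p = 0.00234, adjusted 0.0168), and r = 0.63 without the 2 farthest arrays. By rho Idh2 and Idh3a passed as well (rho = 0.67, permutation p = 0.00233, adjusted 0.0168), with r = 0.48 (permutation p = 0.0370, adjusted 0.167).

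Each of these pairs had a positive r in both groups. Pdhb and Suclg1 had r = 0.62 in mHFD and 0.80 in mLFD, Pdhb and Mdh2 0.63 and 0.85, Cs and Ogdh 0.66 and 0.79, and Pdha1 and Idh3a 0.69 and 0.66. With slide removed as well the 4 pairs had r = 0.71 (Pdhb and Suclg1), 0.90 (Pdhb and Mdh2), 0.76 (Cs and Ogdh) and 0.59 (Pdha1 and Idh3a). With position removed the values were 0.65, 0.69, 0.73 and 0.59 in the same order. On the scanner software's own log ratio, Pdhb and Suclg1 dropped to 0.33 and Cs and Ogdh to 0.27, while Pdhb and Mdh2 stood at 0.69 and Pdha1 and Idh3a at 0.73.

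**Figure D4:**
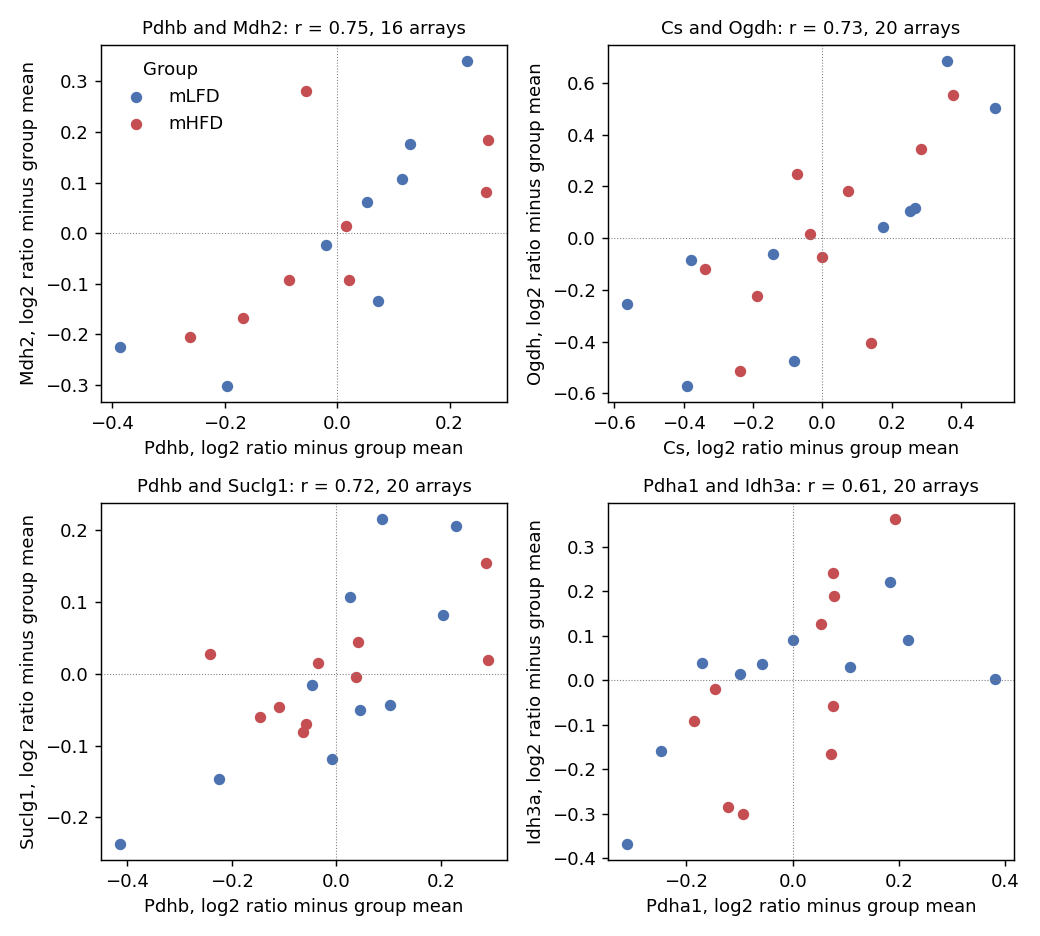
Each panel plots 2 genes against each other as log2 ratio minus the group mean, with 1 point per array, mLFD in blue and mHFD in red. The panels show the 4 pairs past the threshold, with r = 0.75, 0.73, 0.72 and 0.61, and mice of both groups lie along the same trend.

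No pair of pyruvate dehydrogenase subunits passed the test. Pdha1 and Pdhb, whose proteins form the E1 part together, had r = 0.22 and rho = 0.25 (permutation p = 0.375, adjusted 0.743), and Pdhb and Dlat r = -0.00091 and rho = 0.012 (permutation p = 0.997, adjusted 0.997). Pdha1 and Dlat had r = 0.24 and rho = 0.27 (permutation p = 0.315, adjusted 0.667). That value rests on single arrays: it was 0.61 without the 2 arrays farthest out in Pdha1, and 0.79 within mHFD against -0.089 within mLFD. Dlat had its highest r with Idh3a (0.50) and Cs (0.50), neither past the threshold (adjusted permutation p = 0.155 for both). The lowest of the 36 was Idh3a and Mdh2 at -0.44 over 16 arrays (adjusted permutation p = 0.309).

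Probes of the same gene show how far such a correlation belongs to the transcript. The neighbouring Ogdh probes, which share no run over 6 bases, had r = 0.97 (permutation p = 1e-05, the smallest that 100000 permutations can give), and the second probe had r = 0.75 with Cs (permutation p = 0.000230, adjusted over 6 such tests 0.00138). The dimmest Ogdh probe had r = -0.20 with the first and -0.13 with Cs. For Pdhb, the 2 probes that overlap by the 15 bases shown above had only r = 0.21 (permutation p = 0.379), and 0.72 in mHFD against -0.34 in mLFD. The second Pdhb probe had r = 0.31 with Mdh2 and -0.046 with Suclg1, and the dimmest 0.037 and 0.18 (adjusted permutation p from 0.741 to 0.894). The Cs and Ogdh pair was thus past the threshold on both bright Ogdh probes, and each Pdhb pair on 1 of 3 probes. With r = 0.97 between them, the bright Ogdh probes do not give 2 separate tests of that pair. The further probes were adjusted over 6 tests of pairs already past the threshold, and the first probes over 36 pairs. The dimmest Pdhb probe lay close to background, which limits what its low r can show.

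The genes most alike in their pattern over the arrays were the 3 of highest r with each member among 11539 candidates. Candidates needed a value on every array, so Mdh2, which lacked some, could not be one for the other members. No member that was a candidate was among the 3. For Ogdh they were Smad5 (r = 0.93), the unnamed probe A_55_P2107647 (0.92) and Rps19bp1 (0.91), and Cs stood at rank 142. For Cs they were 1110065P20Rik (0.93), A_55_P2114148 (0.91) and Cbfb (0.90), with Ogdh at rank 158. For Suclg1 they were Ttc13 (0.89), A_55_P1972118 (0.88) and Pmpcb (0.83), which encodes the mitochondrial processing peptidase beta subunit, with Pdhb at rank 48. For Pdhb they were Rmnd1 (0.86), Spin1 (0.86) and Septin7 (0.86), with Suclg1 at rank 119. Mdh2 was not ranked there, although its r with Pdhb was 0.75 over 16 arrays, against 0.72 for Suclg1.

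For Mdh2, over 16 arrays, the closest were Atp5g3, a subunit c gene of ATP synthase (0.87), A_55_P2019650 (0.87) and the muscle triad protein gene Trdn (0.87), with Pdhb at rank 31. For Pdha1 they were Rchy1 (0.87), NAP111391-1 (0.84) and Eloa (0.83), with Idh3a at rank 170. For Idh3a they were Ctnnb1 (0.90), Ppp2r2a (0.87) and Lars2 (0.86), for Dlat Thoc7 (0.84), Mettl15 (0.82) and Zmym6 (0.81), and for Idh2 Svip (0.78), 1110018J18Rik (0.78) and Mrpl21 (0.77), and the nearest member stood at rank 263 for Idh3a, 632 for Dlat and 235 for Idh2. All these values come from the same arrays, which share dye scaling and position, and are given as a description.

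Several array measures moved with single genes, among 72 correlations of the 9 genes with 8 measures (permutation test, Benjamini-Hochberg over the 72). Dlat had r = 0.80 and rho = 0.83 with the number of probes well above background on the array (permutation p = 0.000120, adjusted 0.00864; rho p = 4e-05, adjusted 0.00288; r = 0.72 without the 2 farthest arrays). It also had r = -0.75 and rho = -0.78 with the scaling factor of Cy5 (permutation p = 0.000290, adjusted 0.0104; rho p = 0.000160, adjusted 0.00576; r = -0.72 without 2). Idh3a had r = 0.68 and rho = 0.73 with the position on the slide (permutation p = 0.00176, adjusted 0.0422; rho p = 0.000850, adjusted 0.0204; r = 0.70 without 2). With the number of detected probes removed from the pair correlations, Pdhb and Suclg1 had r = 0.71, Pdhb and Mdh2 0.77, Cs and Ogdh 0.69 and Pdha1 and Idh3a 0.59, while Dlat and Idh3a went from 0.50 to -0.013. The Cy5 scaling factor was not removed from the pairs.

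No member's correlation with the slow-fibre, fast-fibre, adipocyte, erythroid or fibroblast marker level passed the test. The highest was Suclg1 with the fast-fibre list at r = 0.53 and rho = 0.57 (permutation p = 0.0185, adjusted 0.166; rho p = 0.0122, adjusted 0.147), and r = 0.49 without the 2 farthest arrays. Mdh2 with the same list had r = 0.51 and rho = 0.49 over 16 arrays (permutation p = 0.0536, adjusted 0.276), and r = 0.28 without 2. Idh2 with the slow-fibre list had r = 0.50 and rho = 0.37 (permutation p = 0.0342, adjusted 0.224), and rested on 2 arrays, since r was 0.088 without them. Between the groups, 7 of 8 slow-fibre markers were lower in mHFD (median -0.20, list level from -0.66 to 0.30 in mHFD and -0.70 to 0.60 in mLFD) and 8 of 8 measured adipocyte markers were lower (median -0.39, list level from -1.20 to 0.30 and -1.24 to 1.08), none past the threshold. Over all probes 9296 of 19206 were lower. Markers of 1 cell type can rise and fall together, so these counts are not read as separate results. The other lists had medians of 0.020 (fast fibre), 0.021 (myofibre), -0.046 (erythroid), -0.043 (endothelial), -0.059 (macrophage), -0.15 (fibroblast) and 0.12 (smooth muscle), with 0 calls in each. Their part in the 9 genes' differences was not tested.

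**Figure D5:**
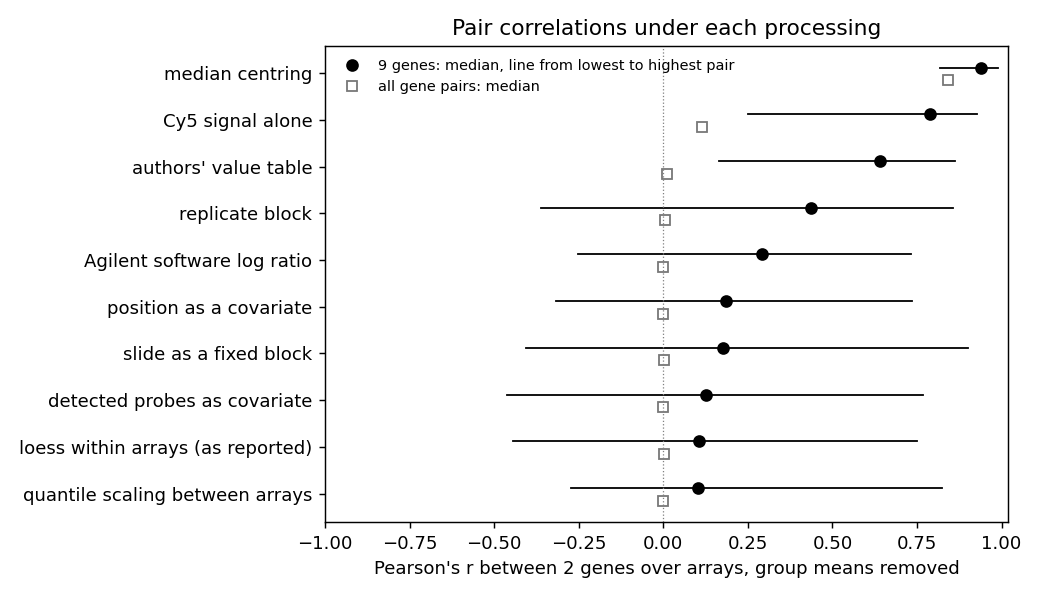
Pearson's r over pairs of genes (horizontal axis, group means removed) under each way of processing the arrays; filled circles are the median over the 36 pairs of the 9 genes with a line from the lowest to the highest pair, and open squares are the median over all pairs of genes well above background on every array. The median of the 9 genes runs from 0.10 with quantile scaling to 0.94 with median centring.

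How strongly the 9 genes appeared to move together depended on the normalization. With loess inside each array the median r was 0.11. On the scanner software's log ratio it was 0.29, on the authors' deposited table of processed values 0.64, on the Cy5 signal alone 0.79 and with median centring only 0.94. Over all gene pairs the medians were 0.0012, -0.0012, 0.012, 0.11 and 0.84 in the same order, so the share of all pairs above the 9 genes' median went from 36.8% with loess to 16.1%, 5.23%, 5.25% and 9.90%. In the 3 settings with the highest medians all 36 pairs were positive.

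The correlation of the 9 genes with the number of detected probes also differed between settings. Their median r with the number of probes well above background was 0.34 with loess, 0.33 on the software's ratio, 0.70 on the authors' table, 0.72 on Cy5 alone and 0.89 with median centring. With that number removed, the pair median was 0.13 with loess, 0.24 on the software's ratio, 0.20 on the authors' table, 0.66 on Cy5 alone and 0.71 with median centring.

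The other genes of the pathway were read from lists in the same fit. Of 47 listed genes 46 were tested, all except Pdk3, and 0 passed in either direction (20 estimates above 0, 26 below, smallest adjusted p = 0.689); 6 had an unadjusted p under 0.05. Among the remaining subunits, Dld, the shared E3 enzyme, gave -0.16 (SE 0.15, adjusted p = 0.804) and Pdhx, the E3-binding protein, 0.070 (SE 0.11, adjusted p = 0.891). A second Dld probe gave -0.060.

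Of the 6 regulators of the complex that were tested, 3 estimates were above 0 and 3 below. Pdk4, the kinase induced by fasting and fatty acids, ranged from -0.79 over -0.087 to 0.31 in mHFD and from -1.61 over -0.50 to 0.47 in mLFD. Of the mHFD mice 7 of 10 mice lay above the mLFD median and the groups overlapped. The difference was 0.47 (SE 0.20), 1.39-fold (95% interval 1.03 to 1.86; unadjusted p = 0.0304, limma adjusted p = 0.689). Pdpr, the regulatory subunit of the pyruvate dehydrogenase phosphatase, gave 0.15 (SE 0.064, unadjusted p = 0.0253, adjusted p = 0.689), with all 10 mHFD mice above the mLFD median. Pdp1, the phosphatase's catalytic subunit, gave -0.18 (SE 0.086, unadjusted p = 0.0510, adjusted p = 0.689), and its dimmer probes -0.11 (unadjusted p = 0.268, adjusted p = 0.7995) and -0.22 (unadjusted p = 0.0369, adjusted p = 0.689). Pdk1 gave 0.057, Pdk2 -0.085 and Pdp2 -0.11.

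In the pyruvate entry list, Mpc1, a subunit of the mitochondrial pyruvate carrier, gave 0.080 (SE 0.045, adjusted p = 0.713), Mpc2 -0.00092 and the anaplerotic enzyme Pcx -0.029. Of the 11 further cycle genes 6 were above 0 and 5 below. Sdhd gave 0.14 (SE 0.068, unadjusted p = 0.0480, adjusted p = 0.689) and Sdhb -0.23 (SE 0.12, adjusted p = 0.697, 9 mLFD mice), the membrane anchor and the iron-sulphur subunit of succinate dehydrogenase, and a second Sdhb probe gave 0.058. Fumarase (Fh1) gave 0.18 (SE 0.11, adjusted p = 0.713) on 1 probe and -0.0063 on another.

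The 3 lipoylation genes, whose products attach the cofactor of Dlat, lay between -0.032 and 0.036, with Lias at 0.036, Lipt1 at -0.032 and Lipt2 at -0.026. Among cytosolic and side enzymes the mitochondrial malic enzyme Me3 gave 0.15 (SE 0.061, unadjusted p = 0.0257, adjusted p = 0.689), and its second probe 0.032, while the aspartate aminotransferases Got2 and Got1 gave -0.12 and 0.15 (adjusted p = 0.713 and 0.782). The branched-chain dehydrogenase, a complex built like pyruvate dehydrogenase, was read together with its regulators. Of these 5 genes 1 estimate was above 0 and 4 below. Bckdha gave -0.17, Bckdhb -0.13 and Ppm1k -0.062 (adjusted p = 0.744, 0.803 and 0.815), Dbt gave -0.049 and Bckdk 0.046.

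Of the 6 upstream regulators tested, 4 estimates were above 0 and 2 below. Ppargc1a, the coactivator of mitochondrial genes, gave 0.34 (SE 0.13), 1.27-fold (95% interval 1.05 to 1.53, unadjusted p = 0.0140, limma adjusted p = 0.689), and 0.28 (SE 0.068) on a dimmer probe (unadjusted p = 0.000381, adjusted p = 0.679). That dimmer probe had a mean log2 Cy5 level of 6.96, below the 7.28 of the dimmest Pdhb probe, so it lay close to background. Its partner receptor Esrra gave 0.17 (SE 0.080, unadjusted p = 0.0498, adjusted p = 0.689) and Esrrg 0.12 (SE 0.065, adjusted p = 0.704) on its brighter probe and 0.00085 on a dimmer one. Nrf1 gave 0.010, Ppargc1b -0.017 and Tfam -0.050. None passed the threshold. Beside them the 9 enzyme genes had a median estimate of 0.056.

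The promoters of the genes, from 250 bases before to 50 after the start site in RefSeq's table for GRCm38.p6, were available for 8 of the 9 genes; Idh3a had no entry. They were searched on both strands for 6 motifs of factors that act on mitochondrial genes or on promoters at large, with no overlap between these motifs at the matches shown. The element of the oestrogen-related receptors (TNAAGGTCA, in 1.28% of 32851 promoters), the NRF1 site (6.23%) and the ETS site (CCGGAAG, 8.86%) were in 0 of the 8. The GC box (GGGCGGG, 25.6%) was in 5: Pdhb, Dlat, Cs, Ogdh and Mdh2. The palindromic CRE (TGACGTCA, 1.79%) was in 2, Ogdh and Mdh2, and the E-box (CACGTG, 7.15%) in Ogdh alone. The percentages count promoter entries, whereas a gene was counted if any of its entries held the motif, and Ogdh has 6 entries against 1 for each of the other genes. The E-boxes of Ogdh lie in other entries than its CRE. Stretches of 30 bases around some of these matches are given for Cs, Ogdh, Mdh2 and Pdhb, which belong to correlated pairs, written along the gene's strand with the motif in capitals.
Cs, GC box, chr10:128337695-128337724, plus strand: tcgccggagggGGGCGGGctcaagtttcgg
Ogdh, GC box, chr11:6291612-6291641, plus strand: gccacacgccgGGGCGGGgctgagagtttg
Ogdh, CRE, chr11:6291535-6291564, plus strand: acccaattctgTGACGTCAcgtcacgccca
Mdh2, CRE, chr5:135778511-135778540, plus strand: ggagagaatcgTGACGTCAggcctcgctcg
Pdhb, GC box, chr14:8173104-8173133, minus strand: ccaaagcctggGGGCGGGgcctatgaaata
These matches describe the letters of the window and do not show that a factor binds there.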

How the data were processed

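On 2-colour Agilent arrays of 60-mers, Cy5 carried the cRNA of 1 mouse and Cy3 a reference mixed in equal parts from all mice, made from 200 ng of RNA each, without a dye swap, per the labels' protocols. The deposited scanner files, written by Agilent Feature Extraction 10.7.3.1 per the submitters' processing notes, hold intensity values of spots and their background. They also hold the software's own log10 ratio of both dyes, deposited by the authors in the same files. A further table of log2 values was deposited by the authors, with a median of 7.54 in every column; its centring and background correction are not given in the sources used here, and its columns matched the Cy5 signal corrected by Cy3 (gene-centred r from 0.965 to 0.992).

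Mean signals were corrected with normexp (offset 50) and normalized by loess within arrays; the 1377 control spots and spots flagged as non-uniform were left out; spots of 1 probe were averaged. Of 39429 probes, the 19206 that the software marked as well above background for Cy5 on 10 or more arrays were tested with limma 3.58.1 in R 4.3.3 (two-sided, Benjamini-Hochberg, threshold 0.05). The brightest probe stood for a gene, with symbols updated through RefSeq (27234 probes matched). The steps were tested on simulated data. The number of arrays limits the precision. Named genes were the 9 members, the 3 genes of smallest p of each other pathway list, the 2 brightest of each cell type list where they bear on a result, and the 3 genes most correlated with each member; further genes named were chosen after their values were seen. The members and lists were chosen with earlier results of these data known.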

Additional observations from a re-analysis of the deposited data

Results flagged for a closer look

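Among 96 groups of 10 arrays of named genes, 8 held a value far from the rest of its group by Dixon's test, where chance gives about 1 in 20, or 4.8. Idh2 in mLFD mouse 4 was low at -0.65, with the nearest mouse at -0.21 (gap over range 0.631). Suclg1 in mHFD mouse 8 was high at 0.18, with the nearest at 0.069 (0.473), and Pdhx in the same mouse was high at 0.39, with the nearest at -0.043 (0.480). Me3 in mHFD mouse 6 was high at 0.45 (0.659). Among cell type markers, Col3a1 (0.679), Hba-a2 (0.577) and Hba-a1 (0.495) were high in mLFD mouse 7, at 1.44, 0.95 and 0.80, and Hba-a1 was low in mHFD mouse 1 at -0.27 (0.549). Without mLFD mouse 4 the Idh2 difference was -0.081 in place of -0.027, and without mHFD mouse 8 no call among the 9 genes was gained.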

How the results depend on the processing

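No call of the 9 genes was made under any of 14 alternatives or when any of 20 arrays was left out (0 genes, smallest adjusted p = 0.5003). The count over all probes was 1, 2 with the replicate block, 0 with the software's log ratio, median centring, Cy5 alone, the authors' table, quantile scaling, slide as a fixed block or position as a covariate, and 0 to 1 when single arrays were left out. The median difference ranged from 0.022 to 0.080 over left-out arrays and from 0 to 0.093 over the alternatives. The median r of pairs was 0.94 with median centring, 0.79 with Cy5 alone, 0.64 in the authors' table and 0.44 with the replicate block (where Pdha1 and Idh3a had r = 0.44, Pdhb and Suclg1 0.62, Pdhb and Mdh2 0.86 and Cs and Ogdh 0.78), and ran from 0.0067 (without mLFD mouse 9) to 0.16 over left-out arrays. Same-numbered mice of the groups deviated together with r from -0.0016 to 0.37, over 0.1 in 8 of 10, and 3 of 10 correlated best with their own number, so the numbers were not taken as pairs. Of 306 member values 25 turned sign, 12 of them when single arrays were left out: Dlat (-0.050 to 0.026), Idh2 (-0.081 to 0.020) and Idh3a (-0.033 to 0.041). The others were Pdhb (-0.0020), Dlat (0.042) and Suclg1 (-0.0064) on the software's log ratio, Idh3a with median centring (-0.021) and in the authors' table (-0.035), and Pdha1 (-0.022), Dlat (0.00073), Idh2 (0.021), Idh3a (-0.010) and Ogdh (0.096) with Cy5 alone. Dlat was 0.066 with position and 0.025 with the number of detected probes as a covariate, and Pdhb -0.0035 as the mean of its probes. The causes were not tested. Keeping flagged spots and the covariate of detected probes were chosen after seeing the data. The 2 dimmest probes of the 9 genes, of Pdhb and Ogdh, lay close to background, which limits what their values can show. The same limit holds for Pdk1, Pdp2, Lipt1, Lipt2, Dbt, Ppm1k, Ppargc1b, Esrrg and the dimmer Ppargc1a probe. Their mean levels were below that of the dim Ogdh probe.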
